A study of Homo sapiens with 6 samples.

Results

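The genes described here make, store and burn fatty acids. They are 33 genes chosen by name in 5 roles: fatty acid synthesis (9 genes), uptake, transport and activation (7), triglyceride storage and lipid droplet coat (6), lipolysis (4) and oxidation (7). All 33 are rows of a deposited table of 27830 genes, and 30 of them passed the filter on low counts, among 14463 genes tested. The cells were LX-2, a human line derived from hepatic stellate cells, the vitamin A storing and scar-forming cells of the liver. The control group (3 samples) is labelled only as control, and the other group (3 samples) received transforming growth factor beta 1 (TGF-β1), a cytokine that drives scar formation, at 10 ng/ml for 24 h. The treatment was in serum-free medium and the line was grown with fetal bovine serum. No label says which medium the controls had during those hours, so TGF-β1 and a lack of serum cannot be told apart in any difference below.

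Fatty acids are built in the cytosol: ATP citrate lyase makes acetyl-CoA, acetyl-CoA carboxylase and fatty acid synthase turn it into palmitate, and elongases and desaturases reshape the chain. Acyl-CoA synthetases activate free fatty acids, which are then esterified stepwise to triglyceride and packed into lipid droplets coated by perilipins, or carried into mitochondria for β-oxidation. Quiescent stellate cells of the liver hold many lipid droplets with retinyl esters, and lose them when they turn into matrix-producing cells in culture or injury.

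For the genes on which the results turn, the stretch of sequence just upstream of a RefSeq transcript start was searched for known motifs. It is shown for SCD and PLIN2 and for GPAM, a gene of the first step of glycerolipid synthesis, which had the smallest p among the other triglyceride and droplet genes. Sequences are from RefSeq (GRCh38.p14), written 5′ to 3′ on the strand of the gene, and stop where an exon of the gene begins in GENCODE. They cover chr10:100346983-100347123 (plus strand) for SCD, chr9:19127577-19127742 (minus strand) for PLIN2 and chr10:112183766-112184015 (minus strand) for GPAM. The stretches of PLIN2 and GPAM lie inside the GENCODE spans of these genes (19108375 to 19149290 and 112149864 to 112215377), whose outermost starts are further upstream. Capitals mark a CCAAT box (CCAAT, the motif of NF-Y) or a GC box (GGGCGG, the motif of Sp1), on either strand.
SCD: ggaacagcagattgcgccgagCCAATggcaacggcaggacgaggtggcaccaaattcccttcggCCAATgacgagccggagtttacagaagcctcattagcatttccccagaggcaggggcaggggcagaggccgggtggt
PLIN2: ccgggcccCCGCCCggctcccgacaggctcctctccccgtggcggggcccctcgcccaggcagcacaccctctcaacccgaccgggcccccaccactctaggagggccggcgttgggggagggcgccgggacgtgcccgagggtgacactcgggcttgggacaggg
GPAM: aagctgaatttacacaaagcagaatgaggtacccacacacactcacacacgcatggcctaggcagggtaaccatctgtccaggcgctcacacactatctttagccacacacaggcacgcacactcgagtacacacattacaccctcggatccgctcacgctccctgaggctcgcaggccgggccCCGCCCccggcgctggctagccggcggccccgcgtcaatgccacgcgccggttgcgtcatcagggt

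The SCD stretch held 2 CCAAT boxes, and 17.6% of all RefSeq windows cut to the same 141 bases held at least 1. PLIN2 and GPAM each had 1 GC box, which was present in 28.8% of windows cut to 166 bases and in 42.6% of windows of 250 bases. The windows of 250 bases before a start covered 27 of the 33 genes (44 windows). Among these 44 windows a CCAAT box was found in 31.8%, against 32% of all 35116 windows, and a GC box in 59.1%, against 42.6%. A sterol regulatory element (TCACNCCAC, the motif of SREBP) was in 2 of the 44 windows, those of ACSL1 and PNPLA2, and in 0.883% of all windows. An E-box (CACGTG) occurred in 1 window each of ELOVL5 and PLIN2, that is 4.55% of the 44 against 6.34% of all, in PLIN2 outside the stretch printed. No window of the genes held a direct repeat 1 (the motif of PPAR with RXR) or a SMAD palindrome (GTCTAGAC), which were in 0.268% and 0.182% of all windows. All motifs were searched on both strands, and a match is a match of letters only.

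Library totals ran from 13866957 to 17694675 counts. FN1, fibronectin, a standard target of TGF-β1, had 932, 958 and 1062 CPM (read counts scaled to the library total) in the controls and 3733, 3558 and 3367 CPM with TGF-β1. Of 12 stellate cell markers 11 were in the table, with summed levels of 2939 to 3119 CPM in controls and 3205 to 3698 CPM with TGF-β1. Of the 9 tested, 3 had a positive log2 difference and 6 a negative one. Control and TGF-β1 means were 1329 and 1767 CPM for COL1A1, 97.6 and 304 CPM for TAGLN, and 95 and 156 CPM for COL3A1. For VIM they were 1416 and 1225 CPM, for NGFR 10.1 and 6.45 CPM, and for ACTA2 4.99 and 4.76 CPM. COL1A1, VIM and PDGFRB were present (means of 1329, 1416 and 47.6 CPM in controls), while DES had 1 to 5 counts and LRAT, the enzyme that esterifies vitamin A, 0 to 2 counts per library. Markers of fat cells were at or near 0: PLIN1 had 0 to 4 counts and CIDEC 0 to 1 per library, and the adipocyte list (5 of 7 in the table) summed to 13.3 to 20.8 CPM, nearly all of it LIPE, a member here. Hepatocyte markers (5 of 8) summed to 50.1 to 53.7 CPM in controls and 55.8 to 71.6 CPM with TGF-β1, carried by CPS1 and SERPINA1, with APOA1, APOB and CYP3A4 at 0 or 1 count. Macrophage markers (6 of 8 in the table) summed to 17.1 to 23.9 and 16.6 to 18.5 CPM, carried by CD14 and CSF1R (control means of 15.8 and 4.76 CPM). Endothelial markers (6 of 6) summed to 438 to 466 and 419 to 451 CPM, nearly all of it TIE1 and FLT1 (control means of 328 and 116 CPM). PECAM1, KDR and VWF had control means of 2.61, 1.48 and 1 CPM, and CDH5 had 0 to 4 counts per library. The part of other cell types in the results was not tested. In bulk RNA, fewer cells of a type and less RNA per cell cannot be told apart. The libraries also differed in how levels followed the GC content of transcripts: over 185 genes of at most 35% GC, the median log2 deviation from the gene mean was 0.69, 0.24 and -0.18 in TGF-β1 replicates 1 to 3, against -0.09, -0.41 and -0.18 in control replicates 1 to 3. Members are therefore also tested with this trend removed.

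Per length of gene, synthesis and oxidation genes stood at the top of the levels, and the uptake genes FABP4 and CD36 at the bottom. The highest FPKM (fragments per kilobase of gene, scaled to the library total, as deposited by the authors) in controls were those of ACLY, ATP citrate lyase (128 ± 5.34, SD, n = 3), ACADVL, the very long chain acyl-CoA dehydrogenase (90.1 ± 10.7), and HADHA, the α subunit of the trifunctional protein of β-oxidation (67.4 ± 2.45). PLIN3, a droplet coat protein that also resides in the cytosol, followed at 65.3 ± 8.67 FPKM and ANGPTL4, a secreted inhibitor of lipoprotein lipase, at 59.5 ± 7.84 FPKM. HADHA, PLIN3 and ANGPTL4, neighbours in this order, lay within about 1 SD of each other, and so did FASN, CPT1A and HADHB at 37.4 ± 3.66, 35.8 ± 1.57 and 33.7 ± 0.777 FPKM. ACADM, an oxidation enzyme for medium chains, was the lowest of the tested oxidation genes at 0.778 ± 0.155 FPKM. CPT2, also of oxidation, was next at 1.2 ± 0.102 FPKM. Their control means were 10.8 and 12.2 CPM, and their longest protein-coding transcripts have 2619 and 3094 bases. The gene length behind the FPKM is not the transcript length, so the order of genes this close depends on the length used. PLIN2, the coat protein found in most cells with droplets, was at 11.5 ± 1.12 FPKM, below PLIN3. DGAT2, which makes the last bond of triglyceride, was at 1.44 ± 0.13 FPKM, below DGAT1, the other enzyme of this step, at 6.11 ± 0.958 FPKM.

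**Figure D1:**
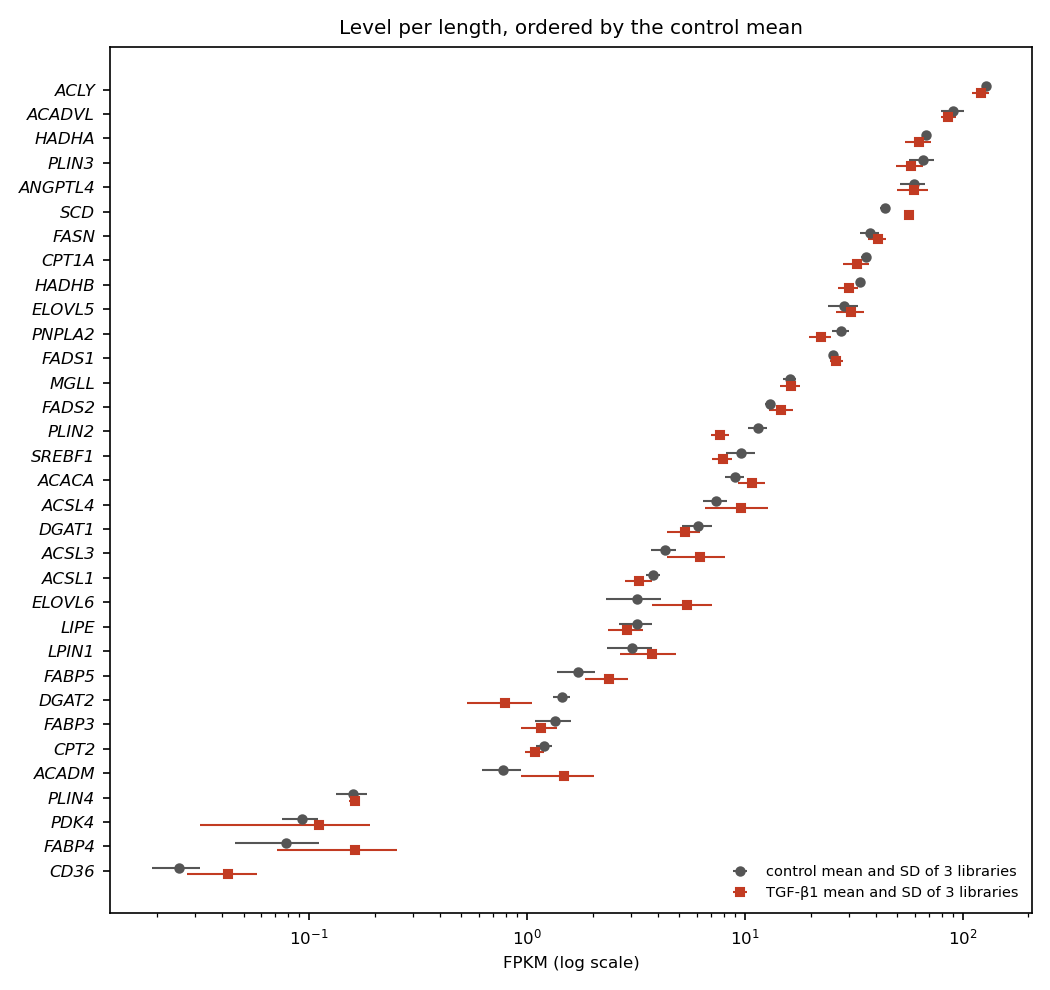
Level of each of the 33 genes in FPKM on a log axis, as mean and SD of 3 libraries for controls (grey circles) and TGF-β1 (red squares), ordered by the control mean. Levels run from ACLY at 128 FPKM to CD36 at 0.0253 FPKM in controls.

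At the bottom of that order stood PLIN4, PDK4, FABP4 and CD36. CD36, a fatty acid translocase, had 5, 4 and 4 counts in control libraries against 8, 10 and 4 counts after TGF-β1. FABP4, the fatty acid binding protein of fat cells and macrophages, had 2, 1 and 2 against 3, 2 and 5 counts. PDK4, a kinase that closes off pyruvate oxidation and a common target of PPARs, had 7, 6 and 7 against 15, 5 and 4 counts. These 3 genes did not pass the filter on low counts of edgeR, and their groups overlapped. DESeq2 gave an unadjusted p of 0.421 for CD36, 0.442 for FABP4 and 0.783 for PDK4, and no adjusted p. No difference was detected at this depth.

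After TGF-β1, none of the 30 tested genes passed edgeR at an adjusted p under 0.05. Among all 14463 genes 53 passed (0.366%). At an unadjusted p under 0.05, 7 of the 30 passed (4 higher, against 11.1% of all genes, and 3 lower, against 4.49%; 15.6% in either direction). DESeq2 called 3: ACADM higher, against 3.45% of all genes, and DGAT2 and PLIN2 lower, against 1% (4.45% in either direction). With the GC trend removed, 4 passed: SCD and ACADM rose, against 1.84% of all genes, and DGAT2 and PLIN2 fell, against 1.65% (3.49% in either direction). In that fit 11 of the 30 had an unadjusted p under 0.05, against 20.9% of all genes (10.7% higher and 10.2% lower). Groups did not overlap in 7 of the 30, against 17.1% of all genes: SCD, ELOVL6 and ACADM lay above the controls (7.93% of all genes did) and SREBF1, DGAT2, PLIN2 and PNPLA2 below (9.12%). The median log2 difference was -0.06 over the 30 genes and 0.01 over all genes tested. By role the medians were 0.10 for synthesis, 0.37 for uptake and activation, -0.21 for storage, -0.10 for lipolysis and -0.14 for oxidation. Positive were 7 of 9, 3 of 5, 1 of 6, 0 of 4 and 1 of 6, against 7380 of all 14463 genes. After removal of the GC trend the medians were 0.20, -0.10, -0.10, 0.02 and -0.07, so those of uptake and of lipolysis changed sign. Positive were then 6, 2, 2, 2 and 2 genes, against 7188 of all 14375 genes.

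**Figure D2:**
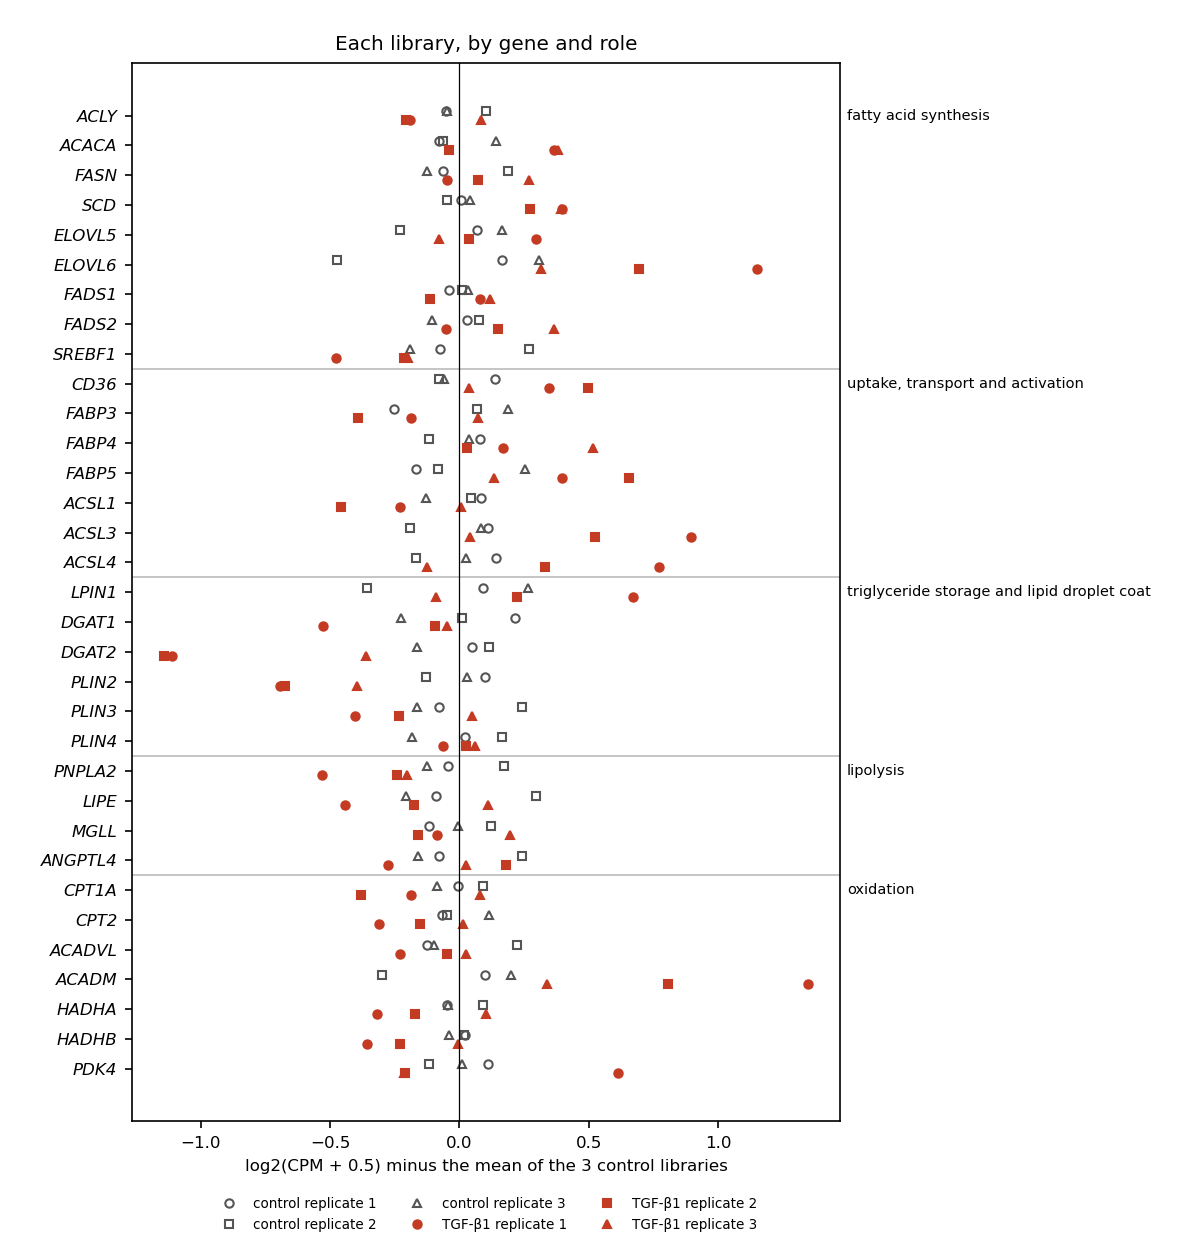
Every library for the 33 genes: log2(CPM + 0.5) minus the mean of the 3 control libraries, with open grey symbols for controls and filled red symbols for TGF-β1, and circle, square and triangle for replicates 1 to 3. PLIN2 and DGAT2 lie left of all controls and SCD and ACADM right of them in all 3 TGF-β1 libraries, while most other genes overlap.

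Of the 9 synthesis genes only SCD passed, and only with the GC trend removed. In that fit 5 were higher and 1 lower at an unadjusted edgeR p under 0.05, against 10.7% and 10.2% of all genes. SCD, stearoyl-CoA desaturase (chromosome 10, 100347124 to 100364834), which makes oleate and palmitoleate, had 232, 223 and 238 CPM in the controls and 304, 280 and 303 CPM with TGF-β1. The 2 groups were each tight and did not overlap. The difference was 1.28-fold (log2 0.36 ± 0.11, SE; edgeR adjusted p = 0.183). With the GC trend removed SCD rose by a log2 difference of 0.35 ± 0.07 (edgeR adjusted p = 0.0212). ELOVL6, which lengthens palmitate to stearate, the substrate of SCD, had 25.6, 16.3 and 28.4 CPM against 51.2, 37.2 and 28.5 CPM. TGF-β1 replicate 3 lay next to the highest control, and the difference of 1.67-fold missed the threshold (log2 0.74 ± 0.25; edgeR adjusted p = 0.202). It was 0.46 ± 0.13 with the GC trend removed (edgeR adjusted p = 0.0692), the transcript having 41.2% GC.

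For the enzymes that precede them the differences did not pass in either fit. FASN, fatty acid synthase, had 335, 399 and 321 CPM against 338, 368 and 422 CPM, overlapping, with a 95% interval of 0.87 to 1.31-fold (edgeR adjusted p = 0.766). ACLY had 647, 720 and 649 CPM against 587, 582 and 712 CPM, with an interval of 0.77 to 1.13-fold (edgeR adjusted p = 0.737). ACACA, acetyl-CoA carboxylase 1, had means of 118 ± 10.2 and 140 ± 22 CPM, and its TGF-β1 replicate 2 (114 CPM) lay among the controls (edgeR adjusted p = 0.442). With the trend removed the interval was 1.03 to 1.29-fold for FASN (edgeR adjusted p = 0.139), 1.04 to 1.40-fold for ACACA (edgeR adjusted p = 0.134) and 0.88 to 1.11-fold for ACLY (edgeR adjusted p = 0.919). Those of FASN and ACACA left out 1, and both had an unadjusted p under 0.05. In both fits the 95% intervals of these 3 genes did not reach 2-fold in either direction.

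Of the desaturases for polyunsaturated fatty acids, FADS1 had 261 ± 6.54 and 267 ± 22.5 CPM, and FADS2 138 ± 8.97 and 154 ± 22.3 CPM, both overlapping (edgeR adjusted p = 0.919 and 0.603). After removal of the trend the log2 difference of FADS2 was 0.27 ± 0.08, an interval of 1.08 to 1.35-fold (edgeR adjusted p = 0.069), and that of FADS1 0.09 ± 0.07 (edgeR adjusted p = 0.547). Small parts of their exons (5.6% and 4.9% of bases) overlap other genes, and the library kit does not mark strand. ELOVL5, their elongase, had 110 ± 15.1 and 116 ± 15.7 CPM, and its log2 difference of 0.08 turned to -0.15 with the GC trend removed (edgeR adjusted p = 0.815 and 0.28). SREBF1, the transcription factor that drives the synthesis genes, had 75.0, 95.4 and 69.1 CPM against 56.7, 68.1 and 68.8 CPM. Its groups did not overlap, but control replicate 3 and TGF-β1 replicate 3 were almost level, and its log2 difference of -0.31 ± 0.15 did not pass (edgeR adjusted p = 0.357). It did not pass with the trend removed either (log2 -0.19 ± 0.08; edgeR adjusted p = 0.195).

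Of the 6 storage genes PLIN2 and DGAT2 passed, in DESeq2 and with the GC trend removed. PLIN2, perilipin 2, whose protein is stable only on lipid droplets, had 62.0, 52.8 and 59.0 CPM in the controls and 35.5, 36.0 and 43.9 CPM with TGF-β1. All 3 TGF-β1 libraries lay below all controls, with replicate 3 nearest to them. The difference was 1.51-fold lower (log2 -0.59 ± 0.15, SE; edgeR adjusted p = 0.123), and it passed in DESeq2 (adjusted p = 0.0138). With the GC trend removed PLIN2 fell by 0.56 ± 0.10 on the log2 scale (edgeR adjusted p = 0.0118). PLIN2 lies on chromosome 9 from 19108375 to 19149290 of GRCh38, has 48.9% GC, where the trend is near 0, and shares no exon base with another gene.

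DGAT2, diacylglycerol acyltransferase 2, had 11.9, 12.5 and 10.2 CPM in the controls. With TGF-β1 it had 5.03, 4.91 and 8.82 CPM. Replicates 1 and 2 lay far below every control, and replicate 3 lay nearer to the lowest control. The difference was 1.85-fold lower (log2 -0.89 ± 0.24; edgeR adjusted p = 0.144; DESeq2 adjusted p = 0.0274). Once the GC trend was removed DGAT2 fell by 0.79 ± 0.18 (edgeR adjusted p = 0.0343). It lies on chromosome 11 from 75759512 to 75801535, and exons of other genes cover 6.8% of its exon bases. DGAT1 had 25.4 ± 3.94 and 21.8 ± 3.87 CPM with overlapping groups (log2 -0.22 ± 0.19; edgeR adjusted p = 0.605). Exons of other genes cover 11.1% of its exon bases. Whether DGAT2 and DGAT1 differed from each other in their response was not tested.

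The other coat proteins and the lipin did not pass. PLIN3, of whose exon bases 17.8% overlap another gene, had 169, 212 and 160 CPM against 135, 152 and 185 CPM (edgeR adjusted p = 0.573). PLIN4, a long coat protein of fat and muscle, was low, at 1.04 ± 0.185 and 1.05 ± 0.0681 CPM (edgeR adjusted p = 0.999). LPIN1, the phosphatidate phosphatase that makes diacylglycerol, had 37.9, 27.6 and 42.8 CPM against 56.9, 41.5 and 33.4 CPM (edgeR adjusted p = 0.569). Summed over the 6 storage genes, the controls had 312, 331 and 294 CPM and TGF-β1 libraries 251, 259 and 296 CPM, which overlap.

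**Figure D3:**
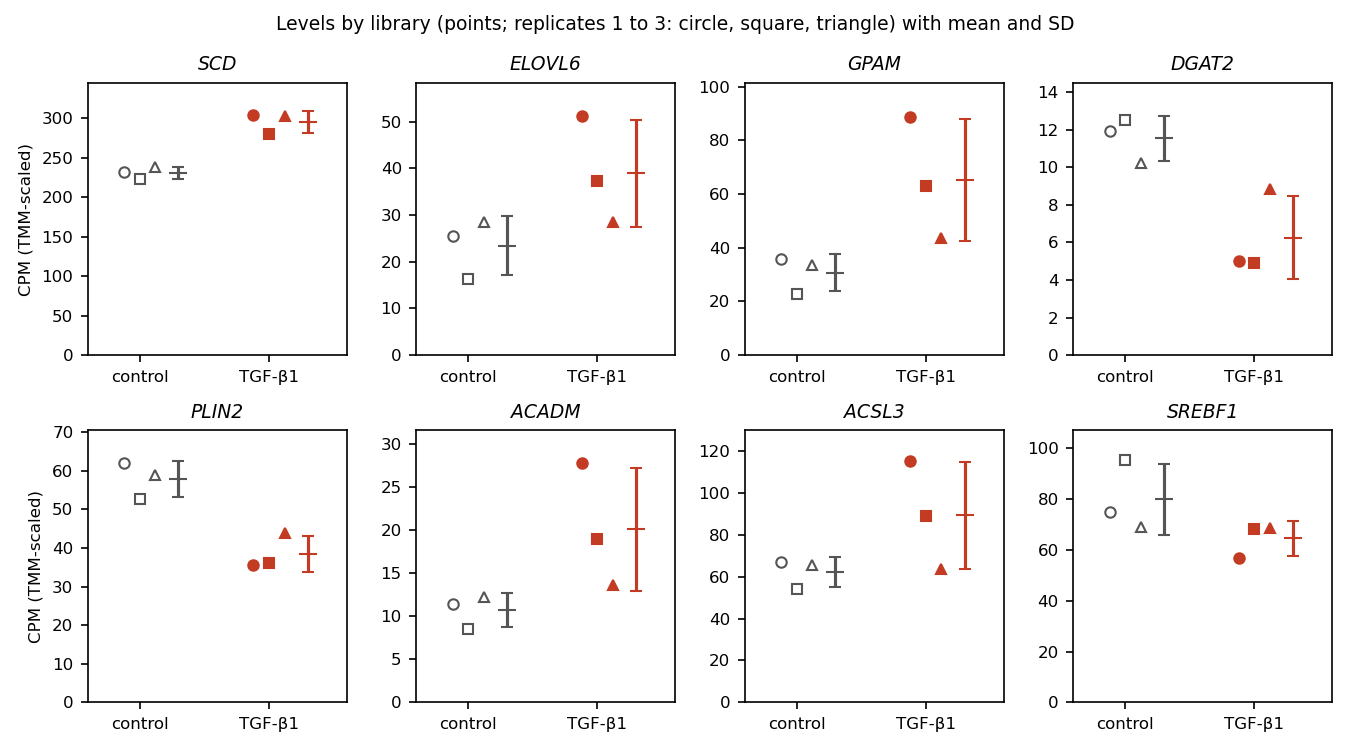
CPM on TMM-scaled library sizes in each library for 8 genes (points: replicates 1 to 3 as circle, square and triangle), with mean and SD beside them, grey for controls and red for TGF-β1. SCD, PLIN2 and DGAT2 show separate groups, while ACSL3 overlaps and ELOVL6 and SREBF1 are only just separated.

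Among genes of lipolysis, which frees fatty acids from droplets, PNPLA2, the adipose triglyceride lipase, had 103, 119 and 96.8 CPM against 73.1, 89.5 and 91.9 CPM. Its groups did not overlap, and the difference of 1.25-fold did not pass (log2 -0.32 ± 0.14; edgeR adjusted p = 0.29, and 0.109 with the GC trend removed). Another gene's exons cover 10.4% of the exon bases of PNPLA2. LIPE, hormone-sensitive lipase, had 16.7 ± 3.24 and 14.8 ± 2.93 CPM (edgeR adjusted p = 0.716). MGLL, monoacylglycerol lipase, had 193 ± 16.3 and 191 ± 25.5 CPM, with an interval of 0.81 to 1.22-fold (edgeR adjusted p = 0.975). ANGPTL4, grouped with this role as the secreted inhibitor of lipoprotein lipase, is not itself a lipase of droplets. It had 140, 174 and 132 CPM against 122, 167 and 150 CPM, an interval of 0.78 to 1.25-fold (edgeR adjusted p = 0.962).

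Of the oxidation genes only ACADM passed, with the GC trend removed and in DESeq2. ACADM, the medium-chain acyl-CoA dehydrogenase (chromosome 1, 75724347 to 75787575), had 11.4, 8.55 and 12.3 CPM in the controls and 27.8, 19.0 and 13.6 CPM with TGF-β1. The groups did not overlap, but the TGF-β1 libraries spread over 2-fold, with replicate 3 close to the controls. The difference was 1.88-fold (log2 0.91 ± 0.26; edgeR adjusted p = 0.15; DESeq2 adjusted p = 0.0203). The transcript has 41.0% GC, and the order of the TGF-β1 libraries was that of their deviation in low-GC genes (0.69, 0.24 and -0.18). With the trend removed ACADM rose by 0.60 ± 0.14 (edgeR adjusted p = 0.0352), a fold of 1.51.

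The other 5 tested oxidation genes had negative log2 differences, of which that of ACADVL was 0.03 with the GC trend removed, and none passed. CPT1A, the gate of fatty acid entry into mitochondria, had 236, 252 and 223 CPM against 208, 182 and 250 CPM (edgeR adjusted p = 0.629). CPT2, its partner on the inner membrane, had 12.2 ± 0.893 and 11 ± 1.28 CPM (edgeR adjusted p = 0.711). ACADVL had 438 ± 61.2 and 412 ± 36.7 CPM, and HADHA 294 ± 16.6 and 271 ± 40.9 CPM (edgeR adjusted p = 0.784 and 0.702). HADHB, the β subunit of the trifunctional protein, had 147, 147 and 141 CPM against 113, 124 and 145 CPM, so that TGF-β1 replicate 3 lay among the controls (edgeR adjusted p = 0.506). HADHA and HADHB, the subunits of 1 complex, had log2 differences of -0.12 ± 0.13 and -0.19 ± 0.13. Summed over the 7 oxidation genes, libraries had 1090, 1241 and 1082 CPM in controls and 966, 1018 and 1179 CPM with TGF-β1.

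None of the 5 tested genes of uptake and activation passed in either fit. ACSL3, an acyl-CoA synthetase of the endoplasmic reticulum and nascent droplets, had 66.8, 54.0 and 65.5 CPM in the controls and 115, 89.1 and 63.6 CPM with TGF-β1. ACSL4, which favours arachidonate, had 81.0, 65.2 and 74.6 CPM against 126, 92.2 and 67.2 CPM. In both genes TGF-β1 replicate 1 was highest and replicate 3 lay among the controls. Their log2 differences were 0.53 ± 0.20 and 0.37 ± 0.20 (edgeR adjusted p = 0.236 and 0.403). The transcripts have 38.1% and 37.4% GC, and the median log2 difference of all 2053 tested genes of at most 40% GC was 0.47. With the trend removed the 2 differences were 0.08 ± 0.08 and -0.10 ± 0.08 (edgeR adjusted p = 0.583 and 0.492). ACSL1 had 23.3 ± 1.84 and 20.0 ± 3.28 CPM (edgeR adjusted p = 0.567). The fatty acid binding proteins FABP5 and FABP3 were low, with 3.27 ± 0.604 and 4.47 ± 0.895 CPM for FABP5 and 1.88 ± 0.364 and 1.62 ± 0.343 CPM for FABP3 (edgeR adjusted p = 0.393 and 0.744).

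**Figure D4:**
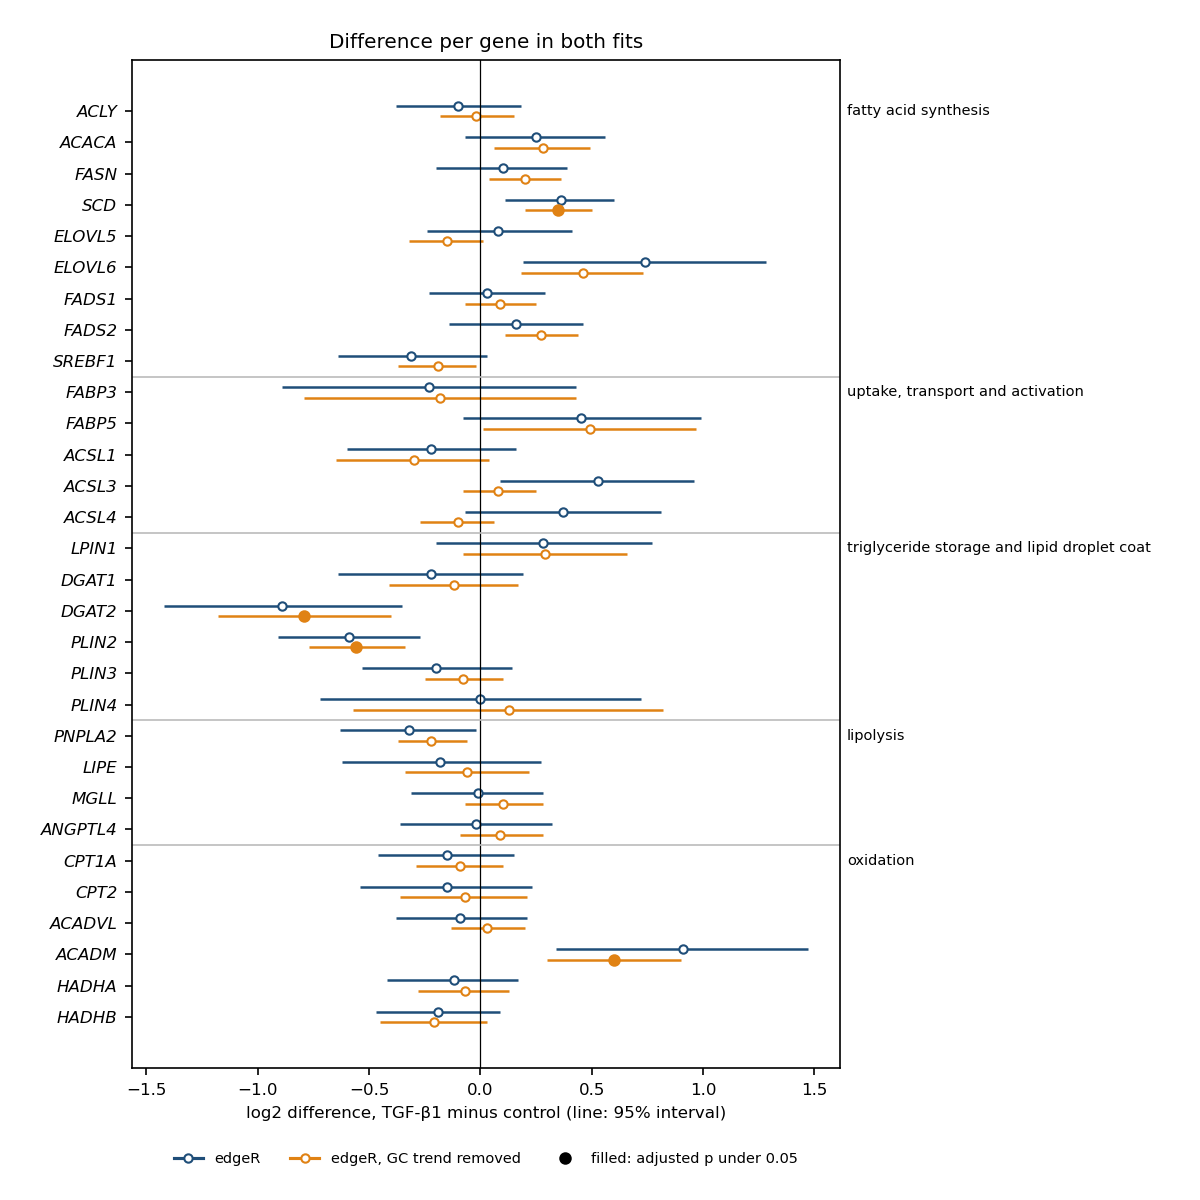
Log2 difference (TGF-β1 minus control) of the 30 tested genes with its 95% interval, from edgeR (blue) and from edgeR with the GC trend removed (orange); filled points have an adjusted p under 0.05. None is filled in blue, and SCD, DGAT2, PLIN2 and ACADM are filled in orange; ACSL3 and ACSL4 move to near 0.

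**Figure D5:**
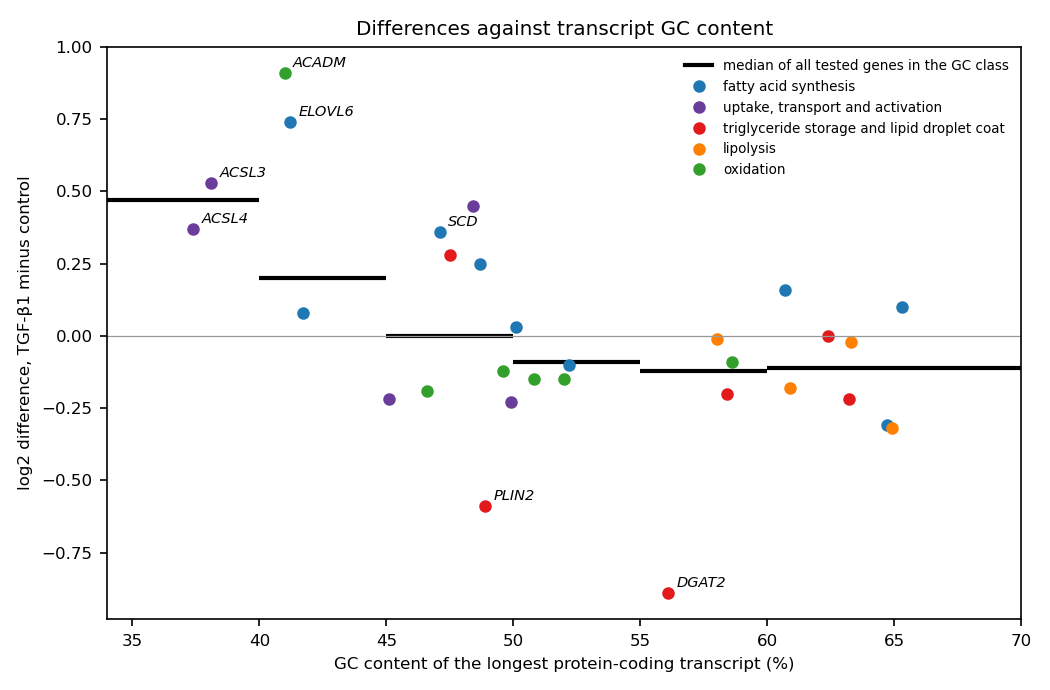
Log2 difference of each tested gene against the GC content of its longest protein-coding transcript, coloured by role, with black lines for the median of all tested genes in each GC class. The medians run from 0.47 at up to 40% GC to -0.12 at 55 to 60% GC, and ACSL3 and ACSL4 lie near the line while ACADM, ELOVL6, SCD, PLIN2 and DGAT2 lie off it.

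A further 119 genes of the same pathways were listed, of which 114 are in the table and 93 were tested. None was called by edgeR. At an unadjusted edgeR p under 0.05, 7 of the 93 passed, against 15.6% of all genes in either direction. Of these 2 were higher and 5 lower, against 11.1% and 4.49% of all genes. DESeq2 called 1, GPAM, against 4.45% of all genes. With the GC trend removed 4 of the 93 were called, against 3.49% of all genes: GPAM and G0S2 rose and ECI2 and PDK1 fell. In that fit 18 of the 93 had an unadjusted edgeR p under 0.05, against 20.9% of all genes. Of these 4 were higher and 14 lower, against 10.7% and 10.2% of all genes. Groups did not overlap in 11 of the 93 (3 above and 8 below the controls), against 17.1% of all genes (7.93% and 9.12%). G0S2, the protein inhibitor of PNPLA2, was abundant, with 1086, 1321 and 1140 CPM against 1197, 1536 and 1465 CPM. Its groups overlapped and its edgeR adjusted p was 0.413, against 0.0485 with the trend removed and 0.0538 to 0.0619 with 3 other forms of the trend line. PDK1, another pyruvate dehydrogenase kinase, had 31.7, 26.7 and 26.9 CPM against 27.3, 19.8 and 17.3 CPM, with overlapping groups (edgeR adjusted p = 0.335, and 0.00457 with the trend removed). G0S2 and PDK1 were chosen for naming after their values were seen.

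GPAM, a mitochondrial glycerol-3-phosphate acyltransferase that commits acyl-CoA to glycerolipids, had 35.7, 22.9 and 33.6 CPM in the controls and 88.9, 63.1 and 43.6 CPM with TGF-β1. Every TGF-β1 library lay above every control. The difference was 2.12-fold (log2 1.09 ± 0.25; edgeR adjusted p = 0.105; DESeq2 adjusted p = 0.00104). GPAM has 41.0% GC, and with the trend removed it rose 1.73-fold (log2 0.79 ± 0.12; edgeR adjusted p = 0.00457). PNPLA3, a droplet protein tied to fatty liver, had 8.97, 9.08 and 9.13 CPM against 6.55, 5.68 and 7.13 CPM, without overlap (edgeR adjusted p = 0.236). The 22 tested genes of this list had a median log2 difference of 0.01, equal numbers above and below 0 (11 each).

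Of 21 other mitochondrial oxidation genes 18 had a negative log2 difference and 3 a positive one, with a median of -0.15, against 7083 negative of all 14463 genes and a median of 0.01. None passed edgeR. ECI2, an enoyl-CoA isomerase needed for unsaturated fatty acids, had 30.5, 26.0 and 26.7 CPM against 19.5, 19.4 and 20.6 CPM, without overlap (log2 -0.48 ± 0.15; edgeR adjusted p = 0.182, and 0.0335 with the trend removed). Other genes' exons cover 29.8% of its exon bases. UCP2, an uncoupling protein of the inner membrane, had 42.3, 38.6 and 37.9 CPM against 23.8, 25.6 and 33 CPM, also without overlap (edgeR adjusted p = 0.176). With the trend removed 15 of the 21 were negative, with a median of -0.12, against 7187 negative of all 14375 genes and a median of 0.00.

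The remaining lists showed no call in either fit. The 21 other tested synthesis genes had a median log2 difference of -0.04, with 9 positive and 12 negative, unlike the 9 member genes. With the trend removed the median was -0.10, with 5 positive and 16 negative. In that fit 4 were lower and 0 higher at an unadjusted edgeR p under 0.05 (10.2% and 10.7% of all genes). Of 21 other synthesis genes, ACSS2, which makes acetyl-CoA from acetate, had 48.7 ± 3.47 and 38.9 ± 6.79 CPM (edgeR adjusted p = 0.35), and HACD2, a dehydratase of chain elongation, 31.8 ± 6.45 and 42.5 ± 10.7 CPM (edgeR adjusted p = 0.358). Of 8 uptake and activation genes, SLC27A3 had 2.51 ± 0.362 and 3.54 ± 0.444 CPM (edgeR adjusted p = 0.341) and ACSL5 8.15 ± 0.876 and 7.21 ± 0.349 CPM (0.689). Of 13 peroxisomal genes, ACOX2, an oxidase for branched chains and bile acid precursors, had 2.33, 2.44 and 1.95 CPM against 1.70, 0.592 and 0.955 CPM (edgeR adjusted p = 0.212). ABCD3, a peroxisomal transporter, had 28.0 ± 4.93 and 39.2 ± 11.6 CPM, with a log2 difference of 0.49 that was 0.04 with the trend removed (edgeR adjusted p = 0.321 and 0.87).

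Receptors that sense fatty acids were present apart from PPARG. PPARD had 113 ± 8.29 and 105 ± 13.9 CPM, RXRA, the partner of all PPARs, 55.6 ± 5.58 and 48.7 ± 5.23 CPM, and PPARA 44.5 ± 6.57 and 53.3 ± 10.3 CPM (edgeR adjusted p = 0.747, 0.561 and 0.511). PPARG, the receptor of fat cells and quiescent stellate cells, had 3, 8 and 5 counts in control libraries against 3, 2 and 2 counts after TGF-β1. It did not pass the filter on low counts of edgeR (DESeq2 unadjusted p = 0.303, no adjusted p).

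The tests rest on 3 samples a group, and nothing says that they came from separate cultures. The p-values set the difference between groups against the spread within groups, which may be only technical. They may therefore not hold for new cultures. Without TGF-β1 replicate 3, edgeR called ELOVL6, ACSL3, ACSL4 and ACADM higher and DGAT2 and PLIN2 lower (6 of the 30 genes, against 11.2% of all genes). It called none of the 30 without TGF-β1 replicate 1 or 2 (2.2% and 0.0271% of all genes) or without control replicate 1, 2 or 3 (0.0875%, 0.25% and 0.101%). With DESeq2-type size factors it called none (0.436% of all genes), and with no filter on low counts 5 (4.46%).

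With the GC trend removed, the calls of the 4 genes also depended on single libraries. PLIN2 was called in 4 of 6 fits that each left out 1 library, and had an edgeR adjusted p of 0.085 without TGF-β1 replicate 2 and 0.104 without control replicate 1. SCD was called in 2 of 6, without TGF-β1 replicate 1 or 3 (edgeR adjusted p = 0.0194 and 0.0234), and had 0.0659 to 0.143 in the others. DGAT2 was called in 2 of 6, without TGF-β1 replicate 3 or control replicate 3 (edgeR adjusted p = 0.00443 and 0.0453), and had 0.0642 to 0.164 in the others. ACADM was called in 1 of 6, without TGF-β1 replicate 3 (edgeR adjusted p = 0.0115), and had 0.0544 to 0.16 in the others. GPAM was called in each of the 6 (edgeR adjusted p = 0.00142 to 0.0496). ECI2 was called without TGF-β1 replicate 3 or control replicate 3 and had an edgeR adjusted p of 0.0678 to 0.183 in the others, and PDK1 lost its call without TGF-β1 replicate 2 (0.0503). G0S2 was called without TGF-β1 replicate 1 or 3 and had 0.0903 to 0.255 in the others. In these fits the share of all genes called was 2.59%, 0.783% and 9.55% without TGF-β1 replicates 1, 2 and 3, and 0.738%, 1.29% and 2.95% without control replicates 1, 2 and 3.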

How the data were processed

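RNA sequencing values of 6 LX-2 samples (3 control, 3 TGF-β1) were used. The labels' protocols name Trizol extraction and a NEBNext Ultra RNA library kit, which does not mark strand. HISAT2, HTSeq (version 0.13.5) and GRCh38 stand in the submitters' processing notes without a role; no annotation release is named there. The authors, per the file headers, deposited whole-number read counts, not normalized, and FPKM. The deposited FPKM gave the same gene length in all libraries for 27830 of 27830 genes (within 0.01 bases).

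Counts were tested with edgeR 4.0.16 (R 4.3.3; quasi-likelihood F test, robust, TMM factors, filterByExpr), adjusted by Benjamini-Hochberg over 14463 genes, with calls at 0.05. CPM use TMM-scaled totals, FPKM compare levels between genes, and a count of 3 (0.17 to 0.216 CPM) was the floor for counting error. Intervals are 95%. Genes were matched to GENCODE 29 (26980 matched, 850 not). The GC trend was a quadratic robust loess (span 0.5) of each library's log2 deviations on the GC content of the longest protein-coding transcript, entered as offsets for 14375 genes. Alternatives were DESeq2 1.42.0 and its type of size factors, no filter, the replicate number as a block, the GC trend removed, and each sample left out. Scripts were tested on simulated data that held no GC trend, so the removal of a trend was not tested there.

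Members and lists were chosen with earlier results of these data known. Named were all members, per further list the called genes or else the 2 with the smallest p, PPARA, PPARD, PPARG and FN1. G0S2 and PDK1 were added after their values were seen. Sequences came from RefSeq promoter windows (27 of 33 members matched).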

Additional observations from a re-analysis of the deposited data

How the results depend on the processing

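Called genes (all genes higher and lower; the 30 members; the 93 pathway genes) were 27 and 26, 0 and 0. DESeq2 gave 457 and 133 (590), 3 members (1 higher, 2 lower) and 1 pathway gene; no filter gave 1071 and 169 (1240), 5 (3 and 2) and 1. Removing the GC trend gave 265 and 237 (502), 4 (2 and 2) and 4. The next 4 forms of that trend were chosen after seeing the data, the 3 trend lines with their calls over all genes known before the quadratic robust one was taken. GC content of the longest transcript of any type gave 243 and 214 (457), 4 and 3 (1 and 2). A linear robust line gave 253 and 241 (494), 4 and 3, a linear least-squares line 276 and 290 (566), 4 and 4 (1 and 3), and a quadratic least-squares line 275 and 266 (541), 4 and 3. Samples with 1 replicate number correlated at 0.176, 0.1 and -0.355 in their deviations, and those with unlike numbers at -0.507 to 0.445. With 3 samples a group, these values cannot tell whether samples with 1 number were handled together. The replicate block gave 429 and 98 (527), 2 (ACADM and DGAT2) and 1, and with the GC trend removed 171 and 165 (336), 1 (PLIN2) and 2.

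Leaving out 1 library, with or without the GC trend, gave 4 to 1671 calls (4 to 1374 higher, 0 to 680 lower), 0 to 6 members (0 to 4, 0 to 2) and 0 to 9 pathway genes (0 to 3, 0 to 7). Log2 differences then ranged over 0 for ACLY (-0.203 to 0.006), ELOVL5 (-0.21 to 0.161), FADS1 (-0.016 to 0.129), ACSL4 (-0.144 to 0.563), DGAT1 (-0.339 to 0.03), PLIN4 (-0.14 to 0.169), LIPE (-0.332 to 0.025), MGLL (-0.128 to 0.16), ANGPTL4 (-0.129 to 0.143), ACADVL (-0.154 to 0.08), HADHA (-0.248 to 0.014), ABCD3 (-0.005 to 0.671), RXRA (-0.283 to 0.001) and PPARD (-0.211 to 0.03). Differences that changed sign once the GC trend was removed are given for the quadratic robust line, any transcript, the block, and the linear robust, linear and quadratic least-squares lines. They were -0.154, -0.142, -0.155, -0.159, -0.171 and -0.168 for ELOVL5, -0.103, -0.083, -0.103, -0.106, -0.113 and -0.114 for ACSL4, and 0.125, 0.125, 0.127, 0.119, 0.12 and 0.127 for PLIN4 (0.003 with the block alone). They were 0.102, 0.102, 0.101, 0.093, 0.089 and 0.098 for MGLL, 0.095, 0.094, 0.091, 0.091, 0.092 and 0.097 for ANGPTL4, 0.034, 0.035, 0.035, 0.025, 0.021 and 0.031 for ACADVL, and 0.012, 0.011, 0.011, 0.003, 0.0 and 0.01 for PPARD. The cause was not tested. Genes under the floor of 3 counts allow no comparison.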
